A study of Mus musculus with 2 samples.

Results

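Expression of 10 pigment epithelium and melanin genes was compared between cultured mouse neural retinal progenitor cells (mNRPCs) and mouse retina tissue. The genes were Mitf, Tyr, Tyrp1, Dct, Pmel, Mlana, Slc45a2, Rpe65, Best1 and Ttr. They were chosen by name as known genes of pigment cells, and all 10 were found among the 31253 genes of the deposited table. There was 1 mNRPC library and 1 retina library, both from the strain C57BL/6. The mNRPCs had been grown out of the neural retina of adult mice and represent 1 sample at passage 24. Their medium held bFGF, a fibroblast growth factor, and CHIR99021, which inhibits glycogen synthase kinase 3. The other library was made from retina tissue. The age of the mice behind the tissue, the number of mice or cultures pooled, and whether pigment epithelium had been peeled from it, are not given in the sources used here. With 1 library per group there was no spread between replicates, so no p-value was calculated and each difference is a difference between these libraries.

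The retinal pigment epithelium (RPE) is a single layer of pigmented cells behind the photoreceptors. It makes melanin early in life, recycles retinoids for vision and clears shed photoreceptor outer segments. Melanin forms in melanosomes from tyrosine, and most of the genes for this are shared by the RPE, the pigmented ciliary and iris epithelium and the melanocytes of the choroid. The transcription factor MITF switches on many of these genes. In the developing eye it marks the future RPE and is lost from the future neural retina.

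Where such genes are high together, the DNA before their start sites is of interest. The RefSeq promoter windows (build GRCm38.p6) run from 250 bases before to 50 bases after a start site and covered 6 of the 10 genes with 8 windows, of which 3 belonged to Mitf. Stretches that lie before the start site are shown for the 3 melanin enzymes and for Rpe65. For Tyr (chr7:87493513-87493612, minus strand) and Tyrp1 (chr4:80834113-80834212, plus strand), capitals mark the longest stretch that both windows share around the letters CATGTG. For Dct (chr14:118052347-118052496, minus strand) and Rpe65 (chr3:159599081-159599180, plus strand), capitals mark CATGTG, the core of E-boxes known to be bound by MITF, and TAATCC, the core recognised by OTX factors, each on either strand.

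Tyr: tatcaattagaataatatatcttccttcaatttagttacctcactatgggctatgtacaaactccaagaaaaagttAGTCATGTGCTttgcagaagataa

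Tyrp1: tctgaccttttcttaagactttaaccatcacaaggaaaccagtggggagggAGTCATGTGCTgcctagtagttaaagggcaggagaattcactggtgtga

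Dct: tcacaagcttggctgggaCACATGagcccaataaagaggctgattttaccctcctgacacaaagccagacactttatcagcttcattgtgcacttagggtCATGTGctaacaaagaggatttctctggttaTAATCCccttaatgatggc

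Rpe65: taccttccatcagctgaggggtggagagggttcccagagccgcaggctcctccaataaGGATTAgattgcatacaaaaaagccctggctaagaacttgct

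The shared stretch AGTCATGTGCT began 24 bases before the start site of Tyr and 49 bases before that of Tyrp1. It is known as the M-box of pigment genes. It was present, on either strand, in 7 of 32851 promoter windows (0.0213%). The other holders were the complement gene C1qb and 4 predicted genes listed at 0 in both libraries. The letters CATGTG alone were present in 14.2% of all windows, TCATGTG, which contains them, in 3.77%, and TAATCC in 7.06%. Of the 6 genes with a window, 4 held CATGTG (Tyr, Tyrp1, Dct and Rpe65) and 5 held TAATCC. In Dct, CATGTG began 150 bases before the start site and its reverse complement 232 bases before it. In Rpe65 the match lay 239 bases before the start site, outside the stretch shown. The E-box CACGTG was in none of the member windows and in 7.15% of all windows. These are matches of letters and no evidence of binding.

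The 10 genes together summed to 96.3 FPKM in retina and to 0.444 FPKM in mNRPCs. FPKM sets the fragments of a transcript against its length and against the mapped fragments of the library, so levels of different genes can be compared. No gene of the set reached 1 FPKM in mNRPCs, while 7 did in retina. In mNRPCs 6 of the 10 were listed at 0, near the 51.4% of all 31253 genes listed at 0 there. In retina none of the 10 was, against 45.4% of all genes. A value of 0 in these data can be a failed estimate, so such genes are described only as listed at 0. In bulk samples fewer cells of a type and less RNA per cell cannot be told apart.

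**Figure D1:**
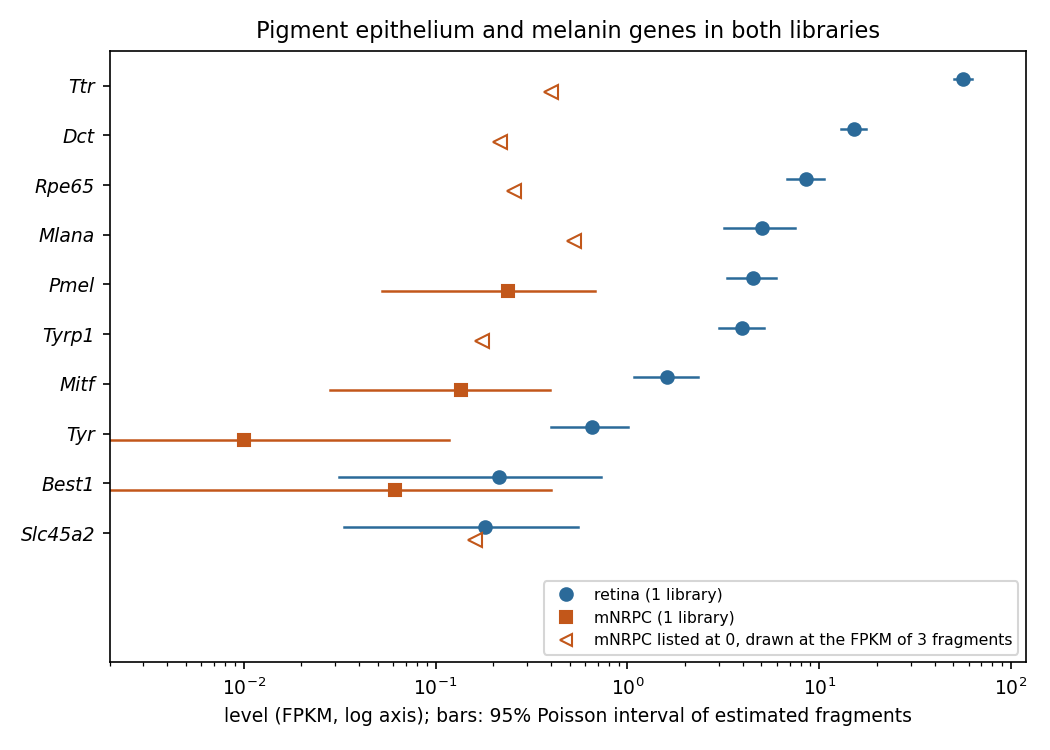
Level of each gene in FPKM on a log axis, retina as circles and mNRPC as squares, 1 library each, with bars for the 95% Poisson interval of the estimated fragments (bars that pass the left edge are cut). Open triangles mark genes listed at 0 in mNRPCs, drawn at the FPKM that 3 fragments would give; retina levels run from 0.180 FPKM (Slc45a2) to 56.5 FPKM (Ttr).

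On the log2 scale, with 1 added to each FPKM value, 7 genes were at least 2-fold lower in mNRPCs, 3 were within 2-fold and none was higher. Of 13780 genes that reached 1 FPKM in either library, 30.0% were at least 2-fold lower in mNRPCs and 24.5% at least 2-fold higher. With both libraries rescaled to a common sum, 15090 genes reached this minimum, and 43.8% of them were lower and 17.9% higher. The common sum multiplied mNRPC values by 1.74 and retina values by 2.57, so the added 1 also weighed less. With sums made equal at the deposited mean level, the shares were 40.6% and 17.3% of 13920 genes. Over all 31253 genes without this minimum, 13.2% were lower. The median log2 ratio of the 10 genes was -2.23, against -0.12 for the genes compared. All 10 lay below the latter value as deposited, and 8 of 10 did with the common sum, which moved the median of the genes compared to -0.74. Adding 1 understates the change of low genes, and 3 of the 10 had under 1 FPKM in both libraries.

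**Figure D2:**
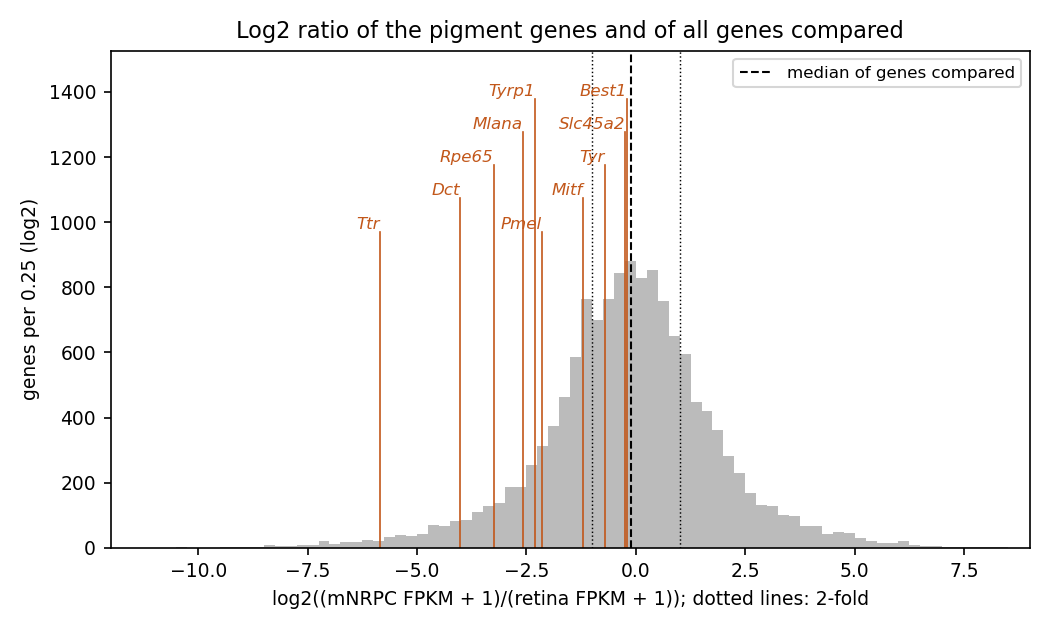
Histogram of the log2 ratio of mNRPC to retina (FPKM + 1) for all genes that reached 1 FPKM in either library, with the 10 pigment genes as vertical lines. The lines run from -5.84 (Ttr) to -0.19 (Best1), and the dashed line is the median of all genes shown, -0.12.

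Mitf encodes the master regulator of pigment cells. It was at 0.135 FPKM in mNRPCs and at 1.62 FPKM in retina (95% counting interval 1.08 to 2.32), a log2 ratio of -1.21. With curated transcript rows only the ratio was -0.63, within 2-fold. The mNRPC value was 8.37% of the retina value, with a counting interval of 1.64% to 26.9%. It rested on an estimated 3.02 fragments, or between 1.64 and 4.16 when the shortest or the longest Mitf transcript was taken for all. Mitf has several start sites and first exons, and the table held 11 transcript rows for it, 3 of them curated. In mNRPCs each row held between 6.60% and 12.7% of the gene. In retina the shares were less even, between 2.84% and 20.5%, and the highest row was a curated one at 0.331 FPKM. With so few fragments the rows cannot show which start site was used in mNRPCs.

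**Figure D3:**
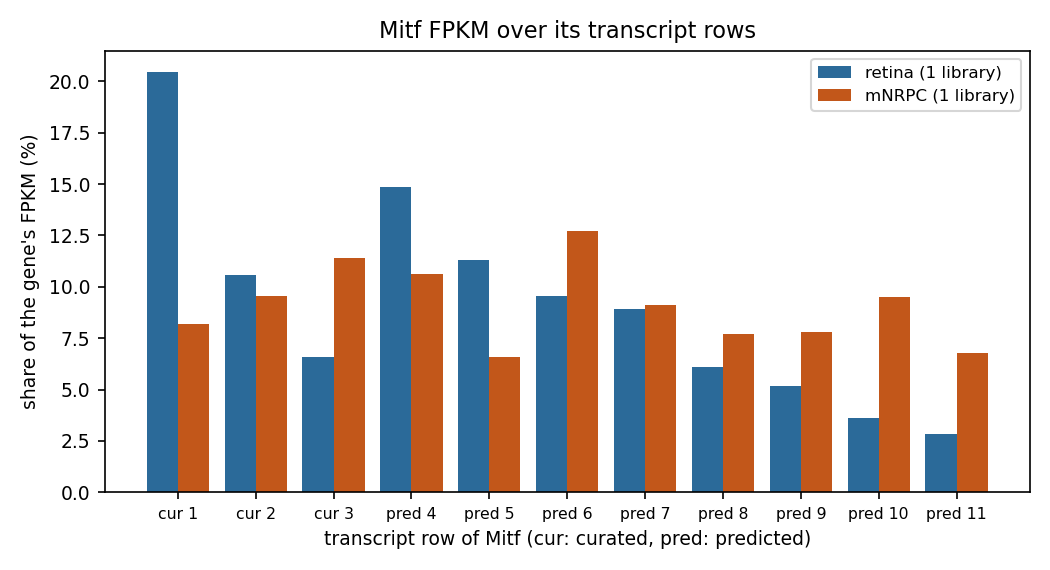
Share of the Mitf FPKM on each of its 11 transcript rows, in percent, for retina and mNRPC, 1 library each. The retina shares reach 20.5% on the first curated row, while the mNRPC shares stay between 6.60% and 12.7%.

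The study's own RT-PCR primers for Mitf and Rpe65 show what an assay of these genes reads. The Mitf pair matched exactly, with a product of 110 bp, in 4 of 8 GENCODE M21 transcripts of the gene, among them all 3 that are paired with a RefSeq transcript. The Rpe65 pair matched in 3 of 3 transcripts, with a product of 109 bp. By RT-PCR the study reported mNRPCs as negative for both genes at the passages it tested. The primers are given 5′ to 3′.

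Mitf forward: tgtgacctcctttgaaattaac

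Mitf reverse: cctcctcttctccttcttct

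Rpe65 forward: actaacagctcatgtcacaggc

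Rpe65 reverse: aaacaggtgatagaaaggctcag

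The melanin enzymes form a family of related proteins. Tyr encodes tyrosinase, which catalyses the first and limiting step of melanin synthesis. In mNRPCs its level was 0.00999 FPKM, which came to an estimated 0.380 fragments. In retina it was 0.656 FPKM (0.401 to 1.01), which came to 20.1 fragments. The counting interval in mNRPCs reached up to 0.117 FPKM and so did not overlap that in retina, but at under 1 fragment no fold is given. Its log2 ratio with 1 added was -0.71 as deposited, -1.40, past 2-fold, with a common sum, and -0.83 with sums made equal at the deposited mean level. Dct encodes dopachrome tautomerase, which acts after tyrosinase on the way to eumelanin. The retina level was 15.2 FPKM (13.0 to 17.6), and mNRPCs were listed at 0 (log2 ratio -4.01). Such a level would have given an estimated 210.2 fragments in the mNRPC library. Tyrp1, tyrosinase-related protein 1, also serves eumelanin synthesis and stabilises tyrosinase. Its retina level was 3.98 FPKM (2.99 to 5.18). In mNRPCs Tyrp1 was listed at 0, where 3 fragments would be 0.175 FPKM (log2 ratio -2.31).

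Within the retina library the 3 enzymes differed in level. Dct was 23.1-fold higher than Tyr, with a counting interval of 14.5 to 38.7, and 3.81-fold higher than Tyrp1 (2.80 to 5.27). Tyrp1 was 6.06-fold higher than Tyr (3.58 to 10.7). The limiting enzyme of the pathway thus had the lowest transcript level of the family. Transcript lengths enter these ratios, and that of Tyr, 6042 bp, was taken from GENCODE. Dct was split over a curated row at 7.90 FPKM and a predicted row at 7.26 FPKM, and Tyrp1 had 99.6% of its level on 3 curated rows. With curated rows only, Dct was at 7.90, Tyrp1 at 3.96 and Tyr at 0.656 FPKM in retina. The order of the 3 was the same, but both ratios of Dct fell below the intervals given.

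Pmel, Mlana and Slc45a2 serve the melanosome itself. Pmel encodes the protein of the fibrils on which melanin is laid down. Retina held 4.50 FPKM of it (3.32 to 5.95), and mNRPCs 0.238 FPKM, an estimated 3.19 fragments (log2 ratio -2.15). The mNRPC level was 5.28% of the retina level, with a counting interval of 1.12% to 15.9%. Pmel and Mitf were the members with the highest mNRPC values. In RefSeq the span of Pmel overlaps Rab5b, Cdk2 and Dgka, for which mNRPCs had 72.2, 40.0 and 3.91 FPKM and retina 42.8, 1.33 and 2.39 FPKM. Whether the counting used strand is not given in the sources used here. Their part in the Pmel values was not tested.

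Mlana encodes MART-1, a melanosomal protein that binds PMEL. Retina held 5.0 FPKM (3.17 to 7.51), while mNRPCs were listed at 0 (log2 ratio -2.59). Nearly all of the retina level stood on 1 predicted row, which had no length here, so the interval uses the length of the curated row. The curated row of Mlana was at 4.72e-06 FPKM in retina, so with curated rows alone no difference was left. Slc45a2 encodes a melanosomal transporter that keeps the organelle fit for tyrosinase. Its level was 0.180 FPKM in retina (0.0334 to 0.552) and listed at 0 in mNRPCs. The retina value came to an estimated 2.73 fragments, under the limit of 3, so no fold is given and a difference was not detectable at this depth.

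Rpe65, Best1 and Ttr belong to the working RPE. Rpe65 encodes the isomerohydrolase of the visual cycle, which makes 11-cis-retinol. Retina held 8.53 FPKM (6.77 to 10.6). In mNRPCs Rpe65 was listed at 0, where 3 fragments would be 0.256 FPKM (log2 ratio -3.25). At the retina level an estimated 100.1 fragments would have been found in the mNRPC library. Ttr encodes transthyretin, a carrier of thyroxine and of the retinol-binding protein that RPE, ciliary epithelium and choroid plexus secrete. It was the highest member in retina, at 56.5 FPKM (50.6 to 62.8), and made up 58.6% of the summed level of the 10 genes there. Ttr was listed at 0 in mNRPCs (log2 ratio -5.84), where 421.7 fragments would follow from the retina level.

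Best1 encodes bestrophin-1, a calcium-activated chloride channel of the RPE. Its level was 0.0615 FPKM in mNRPCs and 0.215 FPKM in retina (0.0314 to 0.725), from an estimated 0.806 and 2.27 fragments. Both were under the limit of 3 fragments, so no difference in Best1 was detectable.

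By level in retina the order was Ttr, Dct, Rpe65, Mlana, Pmel, Tyrp1, Mitf, Tyr, Best1 and Slc45a2. Mlana and Pmel did not differ beyond counting error, with a ratio of 1.11 (0.646 to 1.86). The same held for Pmel and Tyrp1 (1.13, 0.753 to 1.70) and for Tyr and Best1 (3.05, 0.792 to 22.4), and Best1 and Slc45a2 were both under 3 fragments. Each other gene differed from the next in the order, the closest being Rpe65 and Mlana at 1.70-fold (1.06 to 2.84). These intervals cover counting error in 1 library only. Parts of the order rest on predicted rows. With curated rows only, Rpe65 (8.49 FPKM) stood above Dct (7.90 FPKM), Tyrp1 (3.96 FPKM) above Pmel (2.93 FPKM) and Tyr (0.656 FPKM) above Mitf (0.608 FPKM), and Mlana came last.

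Retina held 1 FPKM or more of 7 members, and 5 of them (Ttr, Dct, Rpe65, Mlana and Tyrp1) were listed at 0 in mNRPCs. The same was true of 8.68% of all 12639 genes that reached 1 FPKM in retina. As this condition admits a gene through its retina level, nothing is drawn from the count.

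Other pigment genes were described from lists, and these were split between genes lower in mNRPCs and genes at a like level or higher. Of 8 genes of melanosome cargo, 5 were at least 2-fold lower, 1 was higher and 2 were within 2-fold, with a median log2 ratio of -1.04. Gpnmb, a glycoprotein of melanosomes and lysosomes related to PMEL, was the higher gene, at 222 FPKM in mNRPCs and 4.03 FPKM in retina. It was 55.1-fold higher in mNRPCs, and its log2 ratio of 5.47 stood against -2.15 for Pmel. Trpm1, a cation channel of melanocytes and of retinal ON bipolar cells, had 0.80 FPKM in mNRPCs and 45.7 FPKM in retina. Rab38, which directs enzymes to melanosomes, was at 0.955 and 1.90 FPKM. Retina held 1.45 FPKM of Oca2, 1.51 of Slc24a5 and 1.04 of Tspan10, all 3 listed at 0 in mNRPCs.

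Melanosome trafficking genes also serve lysosome-related organelles of other cells. Of 25, 4 were higher in mNRPCs, 5 were lower and 16 were within 2-fold, with a median log2 ratio of -0.23. With a common sum 2 were higher, 10 lower and 13 within 2-fold. In mNRPCs 21 reached 1 FPKM. Bloc1s1, a subunit of the BLOC-1 complex that sorts cargo to melanosomes, was at 134 FPKM in mNRPCs and 71.5 FPKM in retina. Snapin and Bloc1s2, further subunits, had 48.1 and 41.8 FPKM in mNRPCs against 25.6 and 23.9 FPKM in retina. Mreg, the gene of melanoregulin, was at 0.277 and 31.0 FPKM (-4.65). Dtnbp1, also of BLOC-1, was at 26.8 and 47.7 FPKM. Its log2 ratio, -0.81, became 0.12 with curated rows only and -1.38 with a common sum.

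RPE genes outside the set were likewise mixed. Of 7 visual cycle genes, 4 were lower in mNRPCs, 1 was higher and 2 were within 2-fold. Rlbp1, the carrier of 11-cis-retinoids that Müller glia also make, was at 0.0986 and 202 FPKM. Rgr, an opsin of RPE and Müller glia, had 22.1 FPKM in retina against a listed 0 in mNRPCs, and Rdh10 was at 0.968 and 9.51 FPKM. Rdh5, a retinol dehydrogenase of the RPE, was at 9.28 and 4.63 FPKM, a log2 ratio of 0.87. Lrat, which supplies the substrate of RPE65, had 1.66 FPKM in retina and was listed at 0 in mNRPCs.

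Of 23 genes of RPE transport, adhesion and phagocytosis, 7 were higher in mNRPCs, 8 lower and 8 within 2-fold. With a common sum 5 were higher, 9 lower and 9 within 2-fold (5, 8 and 10 with sums equal at the deposited mean level). Most of the genes with the highest levels are made by many cell types. Bsg, the gene of basigin, was at 680 and 433 FPKM, Ctsd, the gene of cathepsin D, at 396 and 164 FPKM, and Mfge8, a bridge for phagocytosis, at 223 and 176 FPKM. With a common sum the log2 ratio of Ctsd went from 1.27 to 0.71, within 2-fold, and that of Mfge8 from 0.34 to -0.22. Timp3, an inhibitor of matrix proteases, was at 285 FPKM in mNRPCs and 19.9 FPKM in retina, 14.3-fold higher. Kcnj13, a potassium channel of the RPE, and Slc16a8, its lactate carrier, had 1.52 and 5.21 FPKM in retina, and both were listed at 0 in mNRPCs.

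Of 12 regulators, 3 were higher in mNRPCs, 3 lower and 6 within 2-fold. With a common sum 2 were higher, 3 lower and 7 within 2-fold (1, 3 and 8 with sums equal at the deposited mean level). Otx2, which acts with MITF on RPE genes and is also made by photoreceptors and bipolar cells, was at 0.0713 FPKM in mNRPCs and 119 FPKM in retina. Nr2f2 and Nr2f1, nuclear receptors of the optic cup, had 20.3 and 16.1 FPKM in mNRPCs against 6.51 and 6.17 FPKM in retina. With a common sum Nr2f1 was within 2-fold (log2 ratio 0.79). With sums equal at the deposited mean level Nr2f1 (0.75) and Nr2f2 (0.99) were both within 2-fold. Pax6, an eye field factor, was at 122.6 and 100.7 FPKM. Its log2 ratio was 0.28 as deposited and -0.28 with a common sum. Of the relatives of Mitf, Tfe3 was at 15.6 and 12.7 FPKM, Tfeb at 4.14 and 2.92 FPKM, and Tfec was listed at 0 in both libraries.

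**Figure D4:**
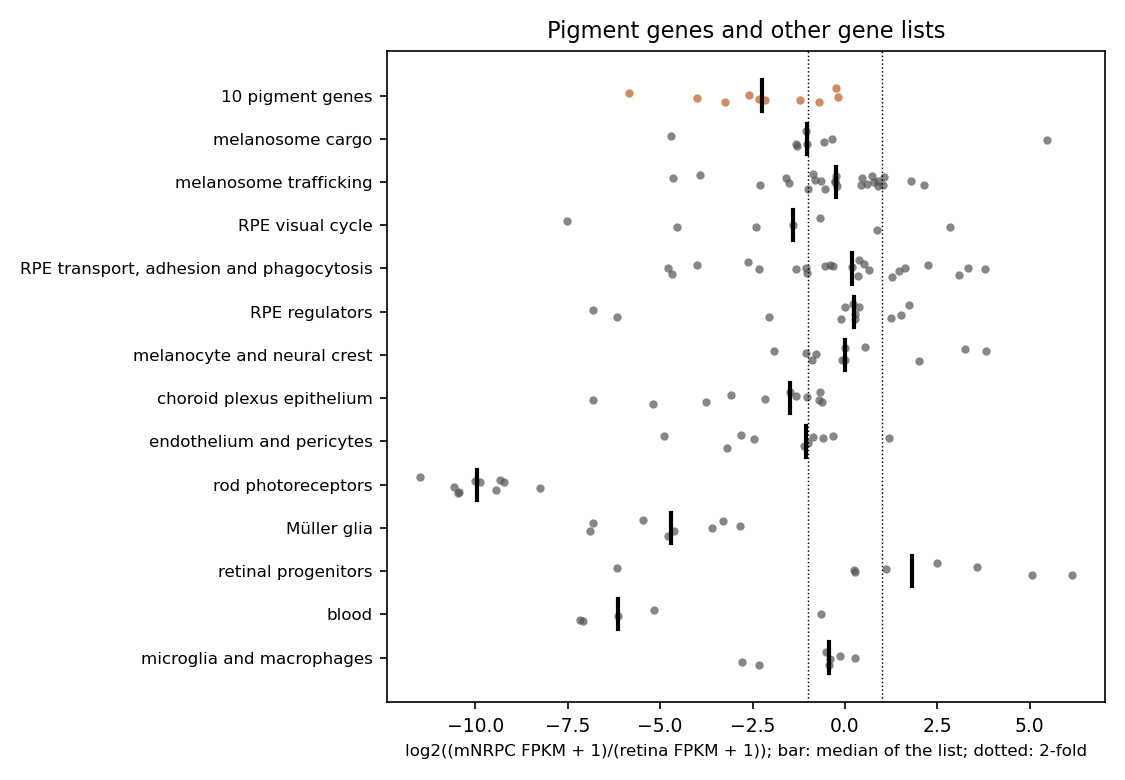
Log2 ratio of mNRPC to retina (FPKM + 1) of each gene, 1 point per gene, for the 10 pigment genes and 13 other lists, with a bar at the median of each list. The pigment genes have a median of -2.23, against -1.04 for melanosome cargo, -4.71 for Müller glia and -9.94 for rods.

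Markers of other cell types were read as well. Of 11 melanocyte and neural crest genes, 2 were lower in mNRPCs, 3 higher and 6 within 2-fold, and with a common sum 4 were lower, 3 higher and 4 within (3, 3 and 5 with sums equal at the deposited mean level). In retina Sox10, the defining regulator of melanocytes, was at 0.0606 FPKM, under 3 fragments, and Pax3 and Foxd3 were listed at 0. Above 3 fragments in retina were, among others, Ednrb at 2.78, Mc1r at 1.38, Kit at 0.844 and Edn3 at 0.724 FPKM. Erbb3, a receptor of neural crest cells, was at 0.0399 FPKM in retina, under 3 fragments, and at 0.503 FPKM in mNRPCs. In mNRPCs Mc1r was at 0.147 FPKM, and Sox10, Kit, Ednrb, Edn3, Pax3 and Foxd3 were listed at 0. The part of melanocytes in the retina levels of the pigment genes was not tested. Kitl, the ligand of KIT, had 79.2 FPKM in mNRPCs against 4.72 FPKM in retina, and Tfap2a 31.3 against 7.08 FPKM. Snai2 was listed at 0 in retina, with 8.54 FPKM in mNRPCs.

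Genes of choroid plexus epithelium, another tissue that makes Ttr, were lower in mNRPCs in 8 of 11 cases, with the other 3 within 2-fold. With a common sum 11 of 11 were lower, and with sums equal at the deposited mean level 9 of 11. Otx2, Aqp1 and Kcnj13 also stand in the RPE lists, so these counts are not particular to choroid plexus. In retina Aqp1 was at 59.0 FPKM, Kcne2, a potassium channel subunit, at 35.2, Enpp2 at 20.7 and Slc4a5 at 7.43 FPKM. Clic6 was at 3.45, Sostdc1 at 1.80, Kl at 0.629 and Prlr at 0.541 FPKM there. Kcne2 was listed at 0 in mNRPCs. Aqp1 had 28.6 FPKM there, and its log2 ratio of -1.02 became -0.95, within 2-fold, with trimmed mean scaling. Folr1 was at 8.04 and 13.5 FPKM. Its log2 ratio, -0.68, became 0.27 with curated rows only, -1.48 with the highest row only and -1.25 with a common sum. The part of such epithelium in the retina level of Ttr was not tested.

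Blood, vessel and microglia markers were present in the retina library too. The 5 blood genes summed to 459 FPKM in retina and 0.664 FPKM in mNRPCs, with Hba-a1 at 197 FPKM in retina. Of 10 endothelium and pericyte genes, 6 were lower in mNRPCs, 3 within 2-fold and 1, Plvap, higher (12.4 and 4.91 FPKM), and with a common sum 8 were lower and 2, Plvap among them, within 2-fold (6 and 4 with sums equal at the deposited mean level). The sums were 62.0 FPKM in retina and 13.5 FPKM in mNRPCs. Kdr was at 29.5 FPKM in retina. The 7 microglia and macrophage genes summed to 12.5 FPKM in retina and 1.83 FPKM in mNRPCs, nearly all of the latter Cd68. Of these, C1qb, at 5.89 FPKM in retina and listed at 0 in mNRPCs, is the gene that shares the 11-letter stretch with Tyr and Tyrp1.

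The labels were checked against defining markers. All 10 rod genes were between 325 and 5072 FPKM in retina. In mNRPCs they were at 0.00702% to 0.0611% of that level, with a median of 0.0386%, and Gnat1 was at 2.58 FPKM. At this median each pigment gene would have had under 1 fragment in the mNRPC library, at most 0.163 for Ttr. Whether pigment gene RNA would follow the share of the rod genes was not tested. Of the rod genes, Gngt1, at the low end of the range given, Rcvrn and Cnga1 were under 3 fragments in mNRPCs, so their own shares are uncertain. The 8 Müller glia genes were all lower in mNRPCs, with Clu at 32.6 and Glul at 31.4 FPKM there. Of 8 retinal progenitor markers 7 reached 1 FPKM in mNRPCs, led by Ccnd1 at 371 FPKM. Against retina 5 of the 8 were higher, 1 lower and 2 within 2-fold. The libraries held an estimated 6.30e+06 (mNRPC) and 5.07e+06 (retina) fragments. The part of depth in the pigment gene levels was not tested. Of 15 genes used by every cell, mNRPCs had more of 9 and less of 1 by at least 2-fold, and more of 7 and less of 3 both with a common sum and with sums equal at the deposited mean level. Among them were Gapdh at 3322 and 2924 FPKM and Eef1a1 at 5528 and 1062 FPKM. None was listed at 0, but Rps19, a ribosomal protein gene, had 0.0586 FPKM in retina against 10.2 FPKM in mNRPCs.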

How the data were processed

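RNA sequencing values of 1 mNRPC and 1 retina library were used. Per the deposited table, values were FPKM for each of 106754 RefSeq transcripts. According to the study's methods the authors checked read quality, mapped reads with Bowtie 2 and estimated FPKM with eXpress, while the submitters' processing notes name TopHat2 2.0.10 and the build GRCm38.p3. The annotation release and strand use are not given in the sources used here. A read that fits several transcripts is shared out by estimation, so rows are less certain than gene sums.

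Accessions were matched without version to RefSeq (GRCm38.p6), then GENCODE M21, for 74283 rows (69.6%), holding 93.2% of the mNRPC and 89.9% of the retina FPKM. Rows of a gene were summed, and values below 1e-06 read as 0. The 10 genes had 29 rows, 14 of them with a length, taken from paired GENCODE transcripts. A gene's length was the level-weighted mean of its rows with a length.

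Depth was estimated from the level at which FPKM times length of the lowest single-row genes gathers, over 6228 rows of at least 1500 bp. Fragments of a gene are estimates from this. Intervals (95%, exact Poisson, or Clopper-Pearson for ratios) and the limit of 3 fragments cover counting error only. Ratios were log2((mNRPC FPKM + 1)/(retina FPKM + 1)), with 2-fold as threshold. No test was possible with 1 library per group. The code was tested on simulated data for genes with a single row, and changes were set only on well expressed genes. Calls for genes at low levels or with several rows were not covered. Python 3.11.15, numpy 2.4.6, pandas 2.3.3 and scipy 1.17.1 were used.

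Members and lists were chosen with earlier results of these data known. No other per-sample column was in the table. Named were all members, up to 3 genes with the highest FPKM of at least 1 in each library from each pigment, RPE, melanocyte and choroid plexus list, and the highest gene of each other list. Oca2, Slc24a5, Tspan10, Lrat, Kcnj13, Slc16a8, Tfe3, Tfeb, Tfec, Sox10, Pax3, Foxd3, Kit, Mc1r, Edn3, Erbb3, Kl and Rps19 were named after their values were seen. The same holds for Ezr, Serpinf1, Mertk, Enpp2, Slc4a5, Clic6, Sostdc1 and Prlr. Some genes that the rule names count toward the values of their lists, while their own levels are not reported here.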

Additional observations from a re-analysis of the deposited data

How the results depend on the processing

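The median log2 ratio of the 10 genes ranged from -6.85 to -1.26. It was -4.56 with a pseudocount of 0.1 and -6.85 with 0.01, since a smaller added value compresses low genes less. The number of genes at least 2-fold lower ranged from 4 to 10. It was 4 of 4 with a minimum of 5 FPKM, as fewer genes then enter, 5 of 10 with curated rows only, which left Mlana without a difference and Mitf at -0.63, 5 of 9 with accession versions kept, where Mlana again had no difference, Mitf was at -0.96 and Tyr, within 2-fold before, had no match, 6 with the highest row only, where Mitf was at -0.40, and 6 with a 4-fold threshold. Rescaling to a common sum gave 8, sums made equal at the deposited mean level, an alternative chosen after seeing the data, gave 7, and the highest count, 10, came with the pseudocount of 0.01.

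Medians of some lists changed sign. That of melanosome cargo genes went from -1.04 to 0.39 with a minimum of 5 FPKM, which left 2 genes, Gpnmb and Trpm1. That of RPE transport, adhesion and phagocytosis genes went from 0.20 to -0.22 with a common sum and to -0.22 with equal sums at the deposited level. That of RPE regulators went from 0.25 to -0.14 with a common sum, -0.0797 with equal sums at the deposited level, -0.0148 with curated rows only, -0.0467 with the highest row only, -0.0295 with accession versions kept and -0.0138 with low values set to the limit of 3 fragments. That of melanosome trafficking genes went from -0.23 to 0.12 with the highest row only. The cause was not tested. A common sum changes the ratio of the libraries and the weight of the added 1 together. Depth limits Best1 and Slc45a2 in both libraries. No paired analysis was possible because neither group held more than 1 sample.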

Other observations

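Because Gpnmb was high in mNRPCs while the melanin genes were not, 20 genes of lysosomal enzymes, membrane proteins and transporters were looked up. The list was written after the values of Gpnmb were seen, so its counts are a description. In mNRPCs 11 of the 20 genes exceeded retina by at least 2-fold, 8 stayed within 2-fold and 1 was lower. The median log2 ratio was 1.35. Of all genes compared 24.5% were higher, and of 15 genes used by every cell 9 were, with a median of 1.53. With a common sum 8 of the 20 were higher, 2 lower and 10 within 2-fold (median 0.79), against 7 of the 15 higher and 3 lower (median 0.96). Cd63, a tetraspanin of lysosomes and melanosomes, was at 1972 FPKM in mNRPCs and 81.8 FPKM in retina. The cathepsin gene Ctsl was at 410 and 49.1 FPKM, Lamp2 at 303 and 38.3 FPKM, and Npc2, a cholesterol carrier of lysosomes, at 158 and 11.7 FPKM. Atp6v0d1, a subunit of the proton pump, was the lower gene, at 41.9 and 117.2 FPKM. Ctsk was at 0.656 and 1.77 FPKM, and Acp5 and Atp6v0d2 were listed at 0 in both libraries.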
